A study of Mus musculus with 4 samples.

Results

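The chemokine ligand genes of the mouse lung were taken as every row of the gene table whose symbol is Ccl, Cxcl, Xcl or Cx3cl followed by a number, 44 of 27998 rows with 38 symbols among them. Of these, 32 had at least 30 UMIs (transcript molecules counted by their molecular barcode) and are named below with the cell type in which each was highest. Ccl28 had 8 UMIs, Ccl20 had 6, and Ccl27b and a second copy of Ccl21a had 1 each. The remaining 8 rows, Ccl26 and further copies of Ccl21b, Ccl21c, Ccl27a and Ccl19, were at 0 of 152919524 UMIs, which allows up to 3 UMIs in that total. No row carries the symbol Cxcl11, and Pf4, Ppbp and Cklf fall outside the naming rule.

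The cells came from lungs of wild-type C57BL/6 mice labelled male, with no treatment named, dissociated with collagenase D and DNase1, cleared of dead cells with no sort for a cell type named, and counted by droplet 3′ single-cell RNA-seq. There were 4 libraries, 1 per age: NB (10 days), 2 M (2 months), 10 M (10 months) and 18 M (18 months), so that values between ages have no replicate check and the intervals given cover counting error only. After the limits of the study on genes, UMIs and mitochondrial reads, 28153 of 34037 barcodes were kept, with 28853314 to 48189430 UMIs per library and a median of 3998.5 to 4308 UMIs per cell. The library labelled 18 M held 577.7 UMIs of Xist per 1000000 UMIs against at most 0.526 in the other libraries, which goes against a label of male cells only, and 131 barcodes occurred in more than 1 library (90 of them among kept cells).

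Chemokines are small secreted or membrane-bound proteins that guide leukocytes through G protein-coupled receptors. Inflammatory chemokines such as the ligands of CCR2 and CXCR2 are made on stimulation and draw monocytes, lymphocytes and neutrophils into tissue, while homeostatic chemokines such as Ccl21a and Cxcl12 are made constantly by stromal and endothelial cells and position resting cells. In the lung, macrophages, neutrophils, epithelium and fibroblasts are all known as sources.

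Each cell was assigned to a type by 10 markers per type, none of them a chemokine or a chemokine receptor, and 23881 cells (84.8%) were assigned, with 78.6% of the cells of the library labelled 18 M and 86.9% to 88.2% of those of the others. Levels are CPM, UMIs per 1000000 UMIs, of a cell type's summed cells in a library, given for sums of at least 10 cells, and the source of a chemokine is the type with the highest mean CPM over its libraries. The share of a chemokine's UMIs held by a type also counts how many cells of that type were captured, so level and share are different orders. Series of values run from the youngest library to the oldest. Interstitial macrophages (13 to 25 cells), monocytes and conventional dendritic cells had too few cells in the 2 M library to be measured there, so that their series leave it out, and mature dendritic cells were measured only in NB (11 cells) and 18 M (10 cells).

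Chemokines took 1.09%, 0.714%, 1.10% and 1.004% of all UMIs. Cxcl2 alone, a ligand of the neutrophil receptor CXCR2, made up 46.1% to 51.3% of these. By total count it was followed by Ccl5 (262645 UMIs), Ccl4 (141560), Cxcl1 (88630) and Ccl3 (59490), whereas 9 of the 32 named chemokines had fewer than 500 UMIs in all.

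Interstitial macrophages were the source by level of 9 chemokines (Ccl4, Cxcl10, Ccl2, Ccl7, Cxcl16, Ccl24, Ccl8, Ccl12 and Cxcl13). Fibroblasts (Cxcl1, Ccl11, Cxcl14), NK cells (Ccl5, Xcl1, Ccl25), alveolar macrophages (Ccl6, Cxcl3, Ccl9) and endothelial cells (Ccl21a, Cxcl12, Cx3cl1) were each the source of 3. Neutrophils (Cxcl2, Ccl3), mature dendritic cells (Ccl22, Ccl17), and pericytes and smooth muscle cells (Ccl27a, Ccl19) had 2 each, and alveolar type II cells (Cxcl15), type 2 innate lymphoid cells (ILC2; Ccl1), conventional dendritic cells (Cxcl9), airway epithelial cells (Cxcl17), and platelets and megakaryocytes (Cxcl5) had 1 each. The source was also the highest type in every library in which it could be measured for 22 of the 32 chemokines.

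**Figure D1:**
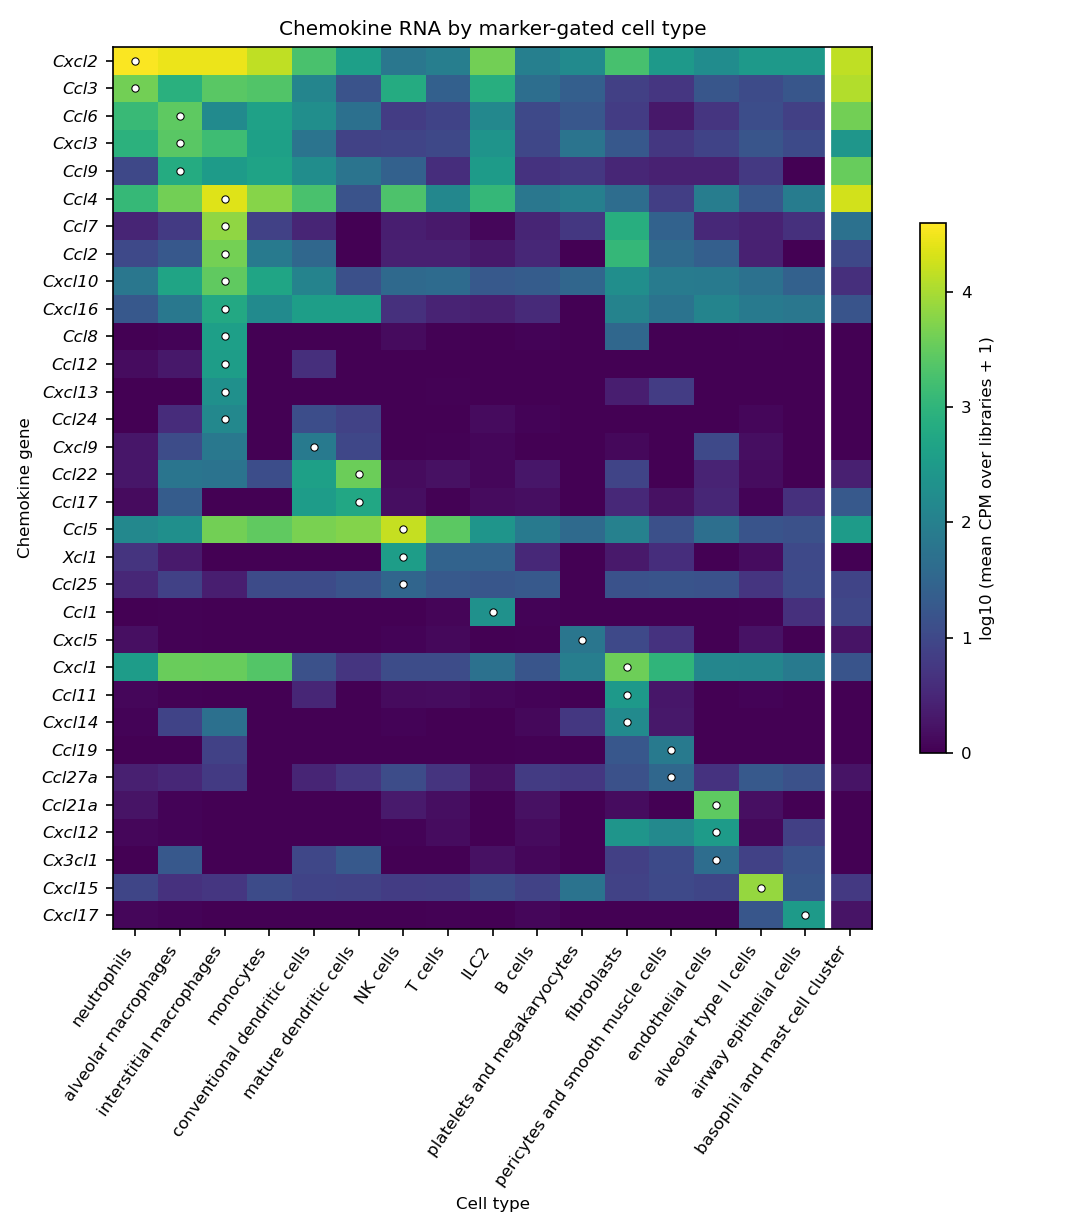
Mean level of the 32 named chemokines (rows) in 16 cell types assigned by markers and, set off at the right, in the 145-cell basophil and mast cell cluster (columns), as CPM on a log colour scale, each library weighted alike. Cxcl2 is bright in neutrophils, alveolar macrophages and interstitial macrophages, whereas Cxcl15, Ccl21a, Ccl11 and Ccl1 each stand out in 1 type.

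Against the mean of the other types (edgeR, library as a block), all 30 chemokines that could be tested were called higher in at least 1 type. This does not set them apart, because 99.6% of the 11167 genes tested were called as well. The order of the sources therefore rests on the highest type against the next one, a test added after the data were seen, in which the highest type is picked from the values it is tested on. There, 19 of 30 chemokines were called, beside 31.1% of all genes, and the median log2 difference was 1.97 over the 30 chemokines and 0.43 over all genes. With DESeq2 in place of edgeR, 9 of the 30 were called. The calls of Ccl1, Ccl2, Ccl8, Ccl12, Ccl17, Ccl19, Ccl22, Ccl24, Cxcl5 and Cxcl14 were lost with it. The share and the median over all genes were computed for the main edgeR fit only, so the DESeq2 count has no such share beside it. Neither Cxcl17 nor Cxcl13 could be tested.

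**Figure D2:**
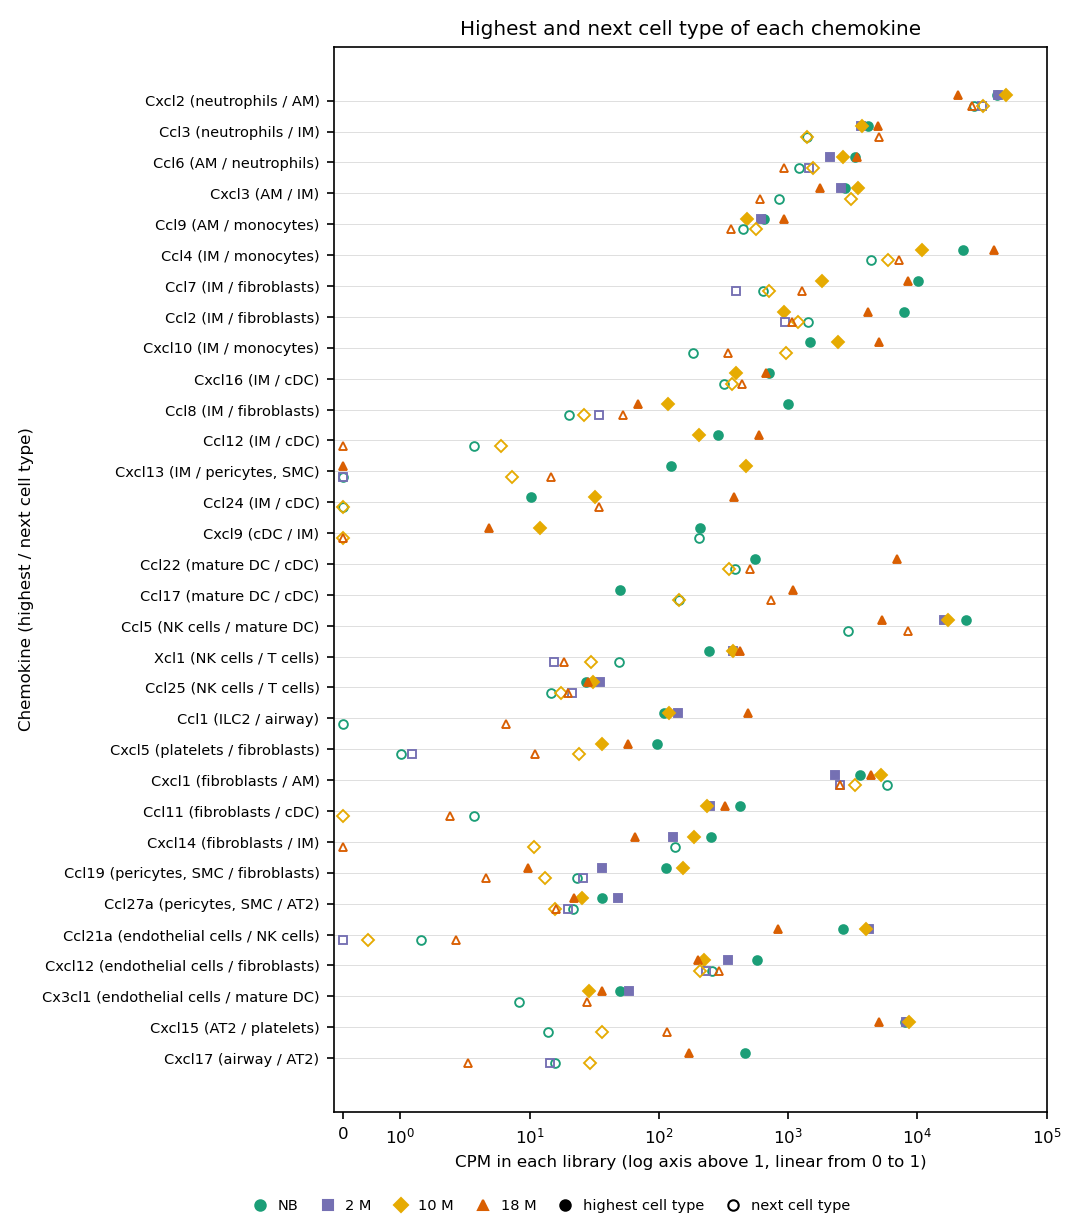
Level of each named chemokine in its highest cell type (filled) and in the next one (open), as CPM on a log axis, with 1 point per library. The gap is wide for Ccl21a, Cxcl15, Ccl11, Ccl12 and Ccl1, while for Cxcl1, Ccl6 and Cxcl12 the test of the difference did not pass.

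The neutrophil-attracting CXC chemokines did not share a source. Cxcl2 was highest in neutrophils, at 41048, 42389, 48819 and 20467 CPM, and stood next in alveolar macrophages, at 27233, 31772, 32198 and 26366 CPM. The neutrophils were thus above the alveolar macrophages in every library but 18 M, and by 1.38 ± 0.45 (SE) on the log2 scale in the test (adjusted p = 0.011). That call depends on the scaling: TMM factors raise neutrophils by 0.98 relative to alveolar macrophages, and with library totals alone the difference was 0.38 (adjusted p = 0.54). Without the 10 M library it was also lost (adjusted p = 0.054). Interstitial macrophages came close, at 25899, 38459 and 22767 CPM.

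Cxcl1, another CXCR2 ligand, had no separate source. Fibroblasts had 3630, 2322, 5202 and 4383 CPM, and alveolar macrophages had 5802, 2543, 3299 and 2502. The ranges overlapped, each type was the higher of the pair in 2 libraries, and the difference was 0.12 ± 0.50 (adjusted p = 0.90). Cxcl3 was highest in alveolar macrophages (2765, 2549, 3460 and 1760 CPM), but its difference from interstitial macrophages did not pass the test (1.15 ± 0.62, adjusted p = 0.14).

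Cxcl15, also called lungkine, was by contrast almost an alveolar type II transcript. These surfactant-making cells had 8081, 8115, 8549 and 5077 CPM, against a mean of 55.3 in the next type, platelets and megakaryocytes (log2 difference 8.78 ± 0.57, adjusted p = 1.1e-18). They held 91.5%, 95.6%, 94.0% and 90.3% of its UMIs. Cxcl5 was rare, with 195 UMIs in all. Platelets and megakaryocytes led it by level (mean 63.7 CPM over 3 libraries, from 7, 1 and 1 UMIs), yet in 10 M fibroblasts held 70 of its 84 UMIs, and without the NB library the lead of the platelets was gone (log2 difference 0.16, adjusted p = 1.0).

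Cxcl3, Cxcl15, Cxcl1 and Cxcl2 lie in this order on the plus strand of chromosome 5 (GRCm38), Cxcl2 at chr5:90903871-90905938. Only 4933 bases separate Cxcl3 from Cxcl15, although these neighbours had different sources, while Cxcl15 and Cxcl1 are 88173 bases apart and Cxcl1 and Cxcl2 10755. The sequences just before their starts are shown because Cxcl2 and Cxcl3, highest in myeloid cells, and Cxcl15, highest in epithelium, belong to this row of genes. They are the 250 bases before the start in RefSeq (GRCm38.p6), plus strand, for Cxcl2 (chr5:90903649-90903898), Cxcl3 (chr5:90785851-90786100) and Cxcl15 (chr5:90794284-90794533). Capitals mark GGGNNTTTCC, the form of an NF-kappaB site searched on both strands:
Cxcl2: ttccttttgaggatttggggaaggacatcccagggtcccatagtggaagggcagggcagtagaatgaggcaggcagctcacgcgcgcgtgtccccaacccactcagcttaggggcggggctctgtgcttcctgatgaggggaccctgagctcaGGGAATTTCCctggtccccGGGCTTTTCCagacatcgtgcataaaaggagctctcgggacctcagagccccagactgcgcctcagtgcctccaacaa
Cxcl3: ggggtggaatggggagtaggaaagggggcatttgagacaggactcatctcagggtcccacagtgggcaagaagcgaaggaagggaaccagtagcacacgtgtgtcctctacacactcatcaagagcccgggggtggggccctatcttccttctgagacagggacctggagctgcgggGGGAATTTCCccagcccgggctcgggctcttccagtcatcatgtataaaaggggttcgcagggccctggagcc
Cxcl15: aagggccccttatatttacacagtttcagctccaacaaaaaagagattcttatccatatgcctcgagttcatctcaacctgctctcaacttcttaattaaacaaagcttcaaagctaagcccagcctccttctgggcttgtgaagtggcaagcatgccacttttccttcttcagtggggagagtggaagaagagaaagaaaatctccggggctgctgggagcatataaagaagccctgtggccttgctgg

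These letters occurred in 1.41% of 32851 RefSeq windows of this length and in those of 4 of the 23 named chemokines with a window, namely Cxcl1, Cxcl2, Cxcl3 and Ccl9. Of these, Cxcl1 and Cxcl2 held 2 matches each. A match describes the letters and does not show that a factor binds there.

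Ccl3, Ccl4 and Ccl5 and the rodent macrophage chemokines Ccl6 and Ccl9 lie together on chromosome 11 between 83525778 and 83664683, and all but Ccl5 were highest in myeloid cells. Ccl4, which draws monocytes and T cells, was highest in interstitial macrophages, at 22519, 10922 and 39204 CPM, above monocytes at 4396, 5910 and 7184. The groups did not overlap, but the test narrowly missed the threshold (1.89 ± 0.84, adjusted p = 0.065), and between 3 and 7 of the 13 to 25 macrophages held 50% of the UMIs. Ccl3, a close relative, was highest in neutrophils (4163, 3645, 3741 and 5000.5 CPM), above interstitial macrophages by 1.94 ± 0.61 (adjusted p = 0.0084), a call lost with library totals alone (0.82, adjusted p = 0.28) and without the NB library (adjusted p = 0.052). Ccl6 in alveolar macrophages had 3281, 2104, 2683 and 3406 CPM and in neutrophils 1219, 1440, 1559 and 935. The macrophages were higher in all 4 libraries by CPM, while the TMM-scaled difference was 0.11 ± 0.39 (adjusted p = 0.87) and that with library totals alone 1.09 (adjusted p = 0.021). Ccl9 was led by alveolar macrophages (655, 614, 482 and 928 CPM) with monocytes next (0.63 ± 0.53, adjusted p = 0.37).

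Basophils and mast cells have to be set beside these 4 chemokines. Their markers assigned at least 10 cells in the 10 M library only, so that they do not enter the order above, but a cluster of 145 cells, built without chemokine genes and named by the same markers, had 20, 11, 36 and 78 cells. Ccl3 in this cluster was at 17991, 8338, 9805 and 10358 CPM, in each library above the neutrophils. Its Ccl9 was at 3157, 3936, 3296 and 3348 CPM, a mean of 3434 against 670 in alveolar macrophages, and the cluster held 11.5% to 18.7% of the UMIs of Ccl9. Ccl4 was at 30492, 14382, 16929 and 16330 CPM and Ccl6 at 5756, 4141, 4404 and 2332 CPM, below the alveolar macrophages in 18 M. When all types were taken from clusters, the basophil and mast cell cluster was the source of Ccl3, Ccl4, Ccl6 and Ccl9.

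The CCR2 ligands Ccl2, Ccl7 and Ccl12, which recruit monocytes, and Ccl8, grouped with them here, lie next to each other and to Ccl11 on chromosome 11 between 82035571 and 82116799. Ccl7 was highest in interstitial macrophages, at 10191, 1829 and 8425 CPM, followed by fibroblasts at 637, 392, 709 and 1279 CPM (2.63 ± 0.44, adjusted p = 1.5e-06). Ccl2 showed the same pair of types but less evenly: the macrophages had 7951, 925 and 4118 CPM and the fibroblasts 1435, 950, 1197 and 1064 CPM. In 10 M the fibroblasts were thus the higher type, and the call (1.52 ± 0.55, adjusted p = 0.023) was lost without the NB library (0.95, adjusted p = 0.23) and without the 18 M library (1.23, adjusted p = 0.060). In clusters, where the class of interstitial macrophages also holds monocytes and dendritic cells, the difference turned to -1.81 for Ccl2, with fibroblasts above (adjusted p = 0.0010), to -0.47 for Ccl7 (adjusted p = 0.37) and to -1.03 for Ccl8 (adjusted p = 0.10).

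Few cells carried these values in either type. In NB, 2 of 20 macrophages held 50% of the UMIs of Ccl2 and of Ccl7, in 10 M a single macrophage held 64 of the 86 UMIs of Ccl2, and in 18 M 5 and 6 of 25 held 50% of Ccl2 and Ccl7. Among fibroblasts, 50% of the Ccl2 UMIs lay in 2 of 139, 2 of 96, 7 of 342 and 3 of 100 cells. Ccl12 was also highest in the interstitial macrophages, at a mean of 362 CPM over 3 libraries (range 204 to 594) against 3.25 in the next type (7.12 ± 0.92, adjusted p = 2.9e-07). Ccl8 in them had a mean of 395 CPM with a range of 68.8 to 996, above fibroblasts at 33.4 (2.67 ± 0.64, adjusted p = 0.00091), a difference no longer called without the NB library (1.05, adjusted p = 0.23).

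By share, fibroblasts came first for Ccl2 in every library and for Ccl7 in 2 M and 10 M. Fibroblasts held 45.7%, 92.3%, 73.1% and 36.1% of the Ccl2 UMIs, and 30.3%, 80.8%, 57.0% and 34.9% of those of Ccl7. The interstitial macrophages, many fewer cells, held 24.8%, 1.07%, 1.83% and 30.1% of Ccl2. Of Ccl7 they held 47.4%, 9.34%, 4.74% and 49.5%, more than the fibroblasts in NB and 18 M. For 18 of the 32 chemokines the type with the largest mean share was not the type with the highest level. Alveolar macrophages held the largest share of 11 chemokines and fibroblasts that of 8, whereas B cells held that of 2 through their numbers.

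**Figure D3:**
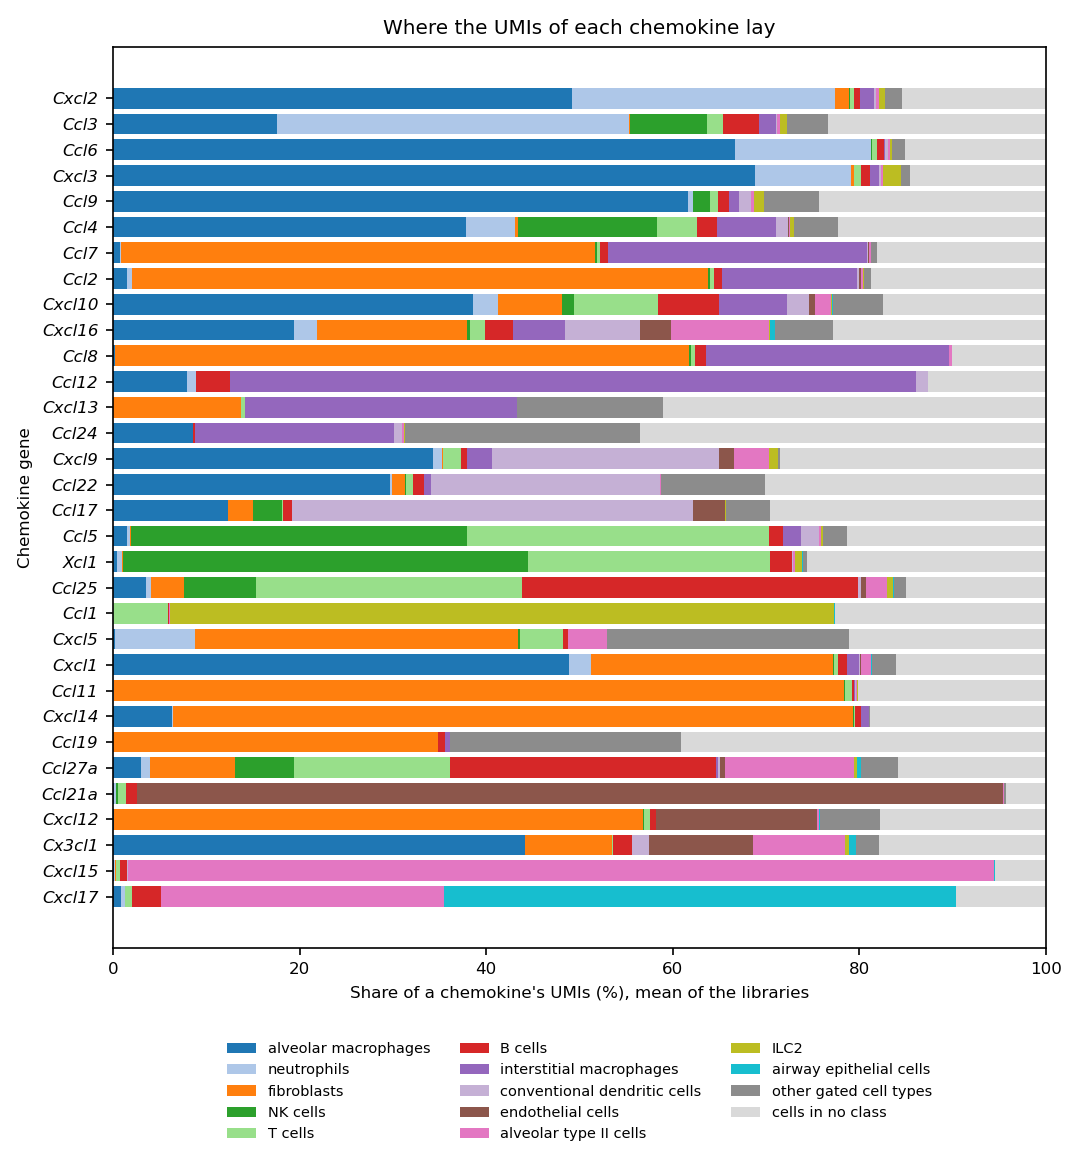
Share of each named chemokine's UMIs held by each cell type, as percent of the UMIs of all kept cells, averaged over libraries, with cells of no assigned type shown as a class of their own. Alveolar type II cells fill nearly the whole bar of Cxcl15 and endothelial cells that of Ccl21a, whereas the bars of Ccl25 and Ccl27a are spread over many types.

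Of the CXCR3 ligands, which attract activated T and NK cells and are induced by interferons, Cxcl10 was highest in interstitial macrophages, at 1479, 2453 and 5034 CPM, above monocytes by 2.32 ± 0.54 (adjusted p = 0.00039). Cxcl9 was low and uneven. It led in conventional dendritic cells (mean 75.6 CPM, range 4.89 to 210), with interstitial macrophages at 68.5 (adjusted p = 0.70), and 189 of its 266 UMIs were in the NB library. In NB, 1 of 20 conventional dendritic cells held 54 of their 56 UMIs of Cxcl9. In 10 M and in 18 M a single such cell held the only 2 UMIs. Under several other settings interstitial macrophages were the source. Cxcl16, a membrane-bound ligand of CXCR6, was at 709, 398 and 671 CPM in interstitial macrophages and at a mean of 377 in conventional dendritic cells (0.52 ± 0.34, adjusted p = 0.23).

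Dendritic cells led the CCR4 ligands, which attract regulatory and type 2 T cells. Ccl22 in mature dendritic cells was at 552 CPM in NB and 6947 in 18 M, with conventional dendritic cells next at a mean of 414, and Ccl17 had a mean of 572 CPM in the mature cells with a range of 50.1 to 1093. In NB, Ccl17 in the mature cells rested on 6 UMIs in 1 of 11 cells and was below the conventional dendritic cells. Of the conventional dendritic cells, 3 of 20 had any Ccl17 in NB, and in 10 M 1 cell held 23 of 24 UMIs. The mature cells were too few to be tested. Among the tested types, conventional dendritic cells were above alveolar macrophages by 2.70 ± 0.43 for Ccl22 (adjusted p = 8.7e-07) and by 4.38 ± 0.49 for Ccl17 (adjusted p = 2.3e-10). Of the eotaxins, which attract eosinophils through CCR3, Ccl11 was a fibroblast transcript at 422, 250, 237 and 324 CPM, with 2.06 CPM in the next type (7.04 ± 0.46, adjusted p = 6.2e-17) and 65.0% to 94.9% of its UMIs in fibroblasts. Ccl24 was highest in interstitial macrophages, but in 18 M a single cell held 75 of the 89 UMIs there, and 95.5% of the 22 UMIs in NB and 58.7% of the 431 in 18 M lay in cells of no assigned type.

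Lymphocytes had chemokines of their own. Ccl5, which draws T cells and monocytes and is a known product of cytotoxic cells, was at 23838, 16155, 17286 and 5360 CPM in NK cells, above conventional dendritic cells by 2.00 ± 0.72 (adjusted p = 0.020), a call lost without NB (adjusted p = 0.065) and without 2 M (adjusted p = 0.11). Mature dendritic cells, too few to be tested, had 2933 CPM in NB and 8428 in 18 M, where they were above the NK cells. T cells were far more uneven, at 5120.5, 655, 5041 and 421 CPM, so that they held 58.5% of the Ccl5 UMIs in NB but 11.2% in 2 M. Xcl1, the ligand of XCR1 on cross-presenting dendritic cells, was at 246, 375, 372 and 428 CPM in NK cells, each value far above the T cell mean of 28.3 (3.49 ± 0.34, adjusted p = 1.3e-11). Ccl1, a ligand of CCR8, was highest in ILC2, at 111, 140, 120 and 491 CPM (9.95 ± 0.47 against T cells, adjusted p = 6.1e-17). The first 3 of these values rest on 7, 7 and 8 UMIs, and that of 18 M on 637 UMIs in 54 of 184 cells. Ccl25 was low in all lymphocytes, at 27.5, 35.1, 31.0 and 28.4 CPM in NK cells and 14.6, 21.1, 17.6 and 19.7 in T cells. The NK cells were above in each library, and the difference did not pass the test (0.54 ± 0.28, adjusted p = 0.12) but did with library totals alone (0.75, adjusted p = 0.030).

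Endothelial cells, fibroblasts, and pericytes and smooth muscle cells led the homeostatic chemokines Ccl21a, Cxcl12, Cxcl14 and Ccl19, and interstitial macrophages led Cxcl13. Ccl21a, the CCR7 ligand that guides dendritic cells and lymphocytes into lymphatic vessels, was at 2640, 4207, 3976 and 833 CPM in endothelial cells against 1.15 in the next type (11.73 ± 0.53, adjusted p = 9.3e-21). All of its endothelial UMIs (843, 719, 1379 and 229) lay in the 14, 5, 16 and 13 cells with at least 2 of the lymphatic genes Prox1, Mmrn1, Reln, Flt4 and Lyve1, of which 5, 3, 11 and 3 had any, and the other endothelial cells were at 0 CPM. Between 1 and 3 cells held 50% of them in each library. Copies of Ccl21a, Ccl19 and Ccl27a lie on chromosome 4, and reads that fit several copies could not be told apart, so their levels are uncertain. Cxcl12, which retains cells through CXCR4, was at 570, 345, 225 and 200 CPM in endothelial cells and at 259, 232, 208 and 292 in fibroblasts. These types did not separate (0.17 ± 0.27, adjusted p = 0.67), and fibroblasts held 44.6%, 63.9%, 70.3% and 48.4% of its UMIs. In 18 M, 1 of 32 endothelial cells held 37 of their 55 Cxcl12 UMIs. The cells with at least 2 of the lymphatic genes held 90.9% of the endothelial Cxcl12 UMIs in 18 M. In NB, 2 M and 10 M they held 6.59%, 5.08% and 17.9%.

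Cxcl14 was highest in fibroblasts (253, 130, 188 and 65.8 CPM, 2.33 ± 0.49 above interstitial macrophages, adjusted p = 0.00013). With DESeq2 this call was lost (adjusted p = 0.27). Ccl19, the other CCR7 ligand, was highest in pericytes and smooth muscle cells at a mean of 78.5 CPM with a range of 9.75 to 154, above fibroblasts at 16.7 (1.94 ± 0.56, adjusted p = 0.0065), a call lost without NB (adjusted p = 0.068) and without 10 M (adjusted p = 0.24). Cxcl13, the B cell attractant, was at 123, 473 and 0 CPM in interstitial macrophages, and had 207 UMIs in all, of which 137 were in NB and none in 2 M, and 89.1% of those in NB lay in cells of no assigned type.

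The remaining members were low. Cx3cl1, the membrane-bound ligand of CX3CR1, had a mean of 43.5 CPM in endothelial cells (range 28.8 to 58.5, 0.93 ± 0.51 above alveolar macrophages, adjusted p = 0.14). Ccl27a was at a mean of 33.2 CPM in pericytes and smooth muscle cells and at 18.3 in alveolar type II cells (adjusted p = 0.58). Cxcl17, a mucosal chemokine, had a mean of 319 CPM in airway epithelial cells over the NB and 18 M libraries, whose values were 467 and 171, and of 15.7 in alveolar type II cells.

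Free RNA in droplets gives some UMIs to cells that do not make a chemokine, and the B cells, a large class low in most chemokines, were used to gauge it. With every cell thinned to 1000 UMIs, Cxcl2 was found in 97.8% to 100% of neutrophils and in 5.35% to 13.7% of B cells, and Xcl1 in 13.9% to 28.8% of NK cells and 0.0415% to 0.110% of B cells. Ccl2 was found in 20% to 23.4% of fibroblasts and at most 0.242% of B cells. For 22 of 32 chemokines the source was above the B cells in every library beyond the intervals. The exceptions were Ccl25, Ccl27a, Ccl1, Ccl24, Cx3cl1, Ccl8, Ccl19, Cxcl9, Cxcl13 and Cxcl5. An exception does not show that the source lay at the level of the B cells, because several sources had few cells and so wide intervals. By mean CPM, Ccl8 was at 395 in its source against 0.116 in B cells and Ccl1 at 216 against 0.0990, while Ccl25 was at 30.5 against 18.1. For Ccl25, found in 1.41% to 3.37% of NK cells and 1.61% to 2.11% of B cells, the B cells are no gauge, since the gene was called higher in them than in the mean of the other types, and neutrophils had a mean of 2.27 CPM.

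Fibroblasts were the cells the study set out to describe, and their chemokines were led by Cxcl1, with a mean of 3884 CPM, followed by Cxcl2 (1814), Ccl2 (1161), Ccl7 (754), Ccl11 (308) and Cxcl12 (248). They numbered 139, 96, 342 and 100 cells. Between the libraries of 18 M and 2 M, 5 of 15 chemokines with at least 20 UMIs were at least 2-fold higher in fibroblasts with an interval above 1, beside 4.93% of 7552 genes, and 1 was lower, beside 5.69%. Cxcl2 was at 1079, 1118, 2403 and 2655 CPM in the 4 libraries, a ratio of 2.38 (95% interval 2.20 to 2.56) of 18 M to 2 M. Ccl7 had a ratio of 3.26 (2.89 to 3.70), although in 2 M 1 of 96 cells held 136 of its 320 UMIs. The ratio was 3.20 (2.38 to 4.36) for Cxcl10 and 4.08 (1.55 to 13.6) for Ccl4. The ratio of 21.9 for Cxcl3 (3.64 to 896) rests on 1 UMI in 2 M. Ccl19 was lower, with a ratio of 0.180, from 5 UMIs in 4 of 100 cells in 18 M and 21 UMIs in 12 of 96 cells in 2 M.

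The other chemokines named for fibroblasts by the study stayed within 2-fold: Cxcl1 had a ratio of 1.89 (1.79 to 1.99), Ccl2 of 1.12, Cxcl12 of 1.26 and Cxcl16 of 1.01, and Cxcl5 had too few UMIs. The highest Cxcl1 was in 10 M, 2.24-fold that of 2 M (2.14 to 2.35). In B cells, which hold little of these chemokines, the ratio of 18 M to 2 M was 2.24 for Cxcl2, 11.99 for Ccl7, 3.11 for Ccl4 and 3.32 for Ccl2, and 9 of 17 chemokines were at least 2-fold higher (10.1% of 11178 genes) and none lower (4.17%). In 18 M the fibroblasts were at 2655 CPM and the B cells at 178 for Cxcl2, and at 1279 and 3.37 CPM for Ccl7. In 2 M the B cells were at 0.281 CPM for Ccl7, so that their ratio of 11.99 rests on very few UMIs there. Ccl4 was lower in fibroblasts than in B cells in both libraries, at 25.0 against 157 CPM in 18 M and at 6.13 against 50.4 CPM in 2 M. Cxcl3 was lower in fibroblasts than in B cells in 2 M, at 1.23 against 9.18 CPM. The part of free RNA in the fibroblast values was not tested.

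**Figure D4:**
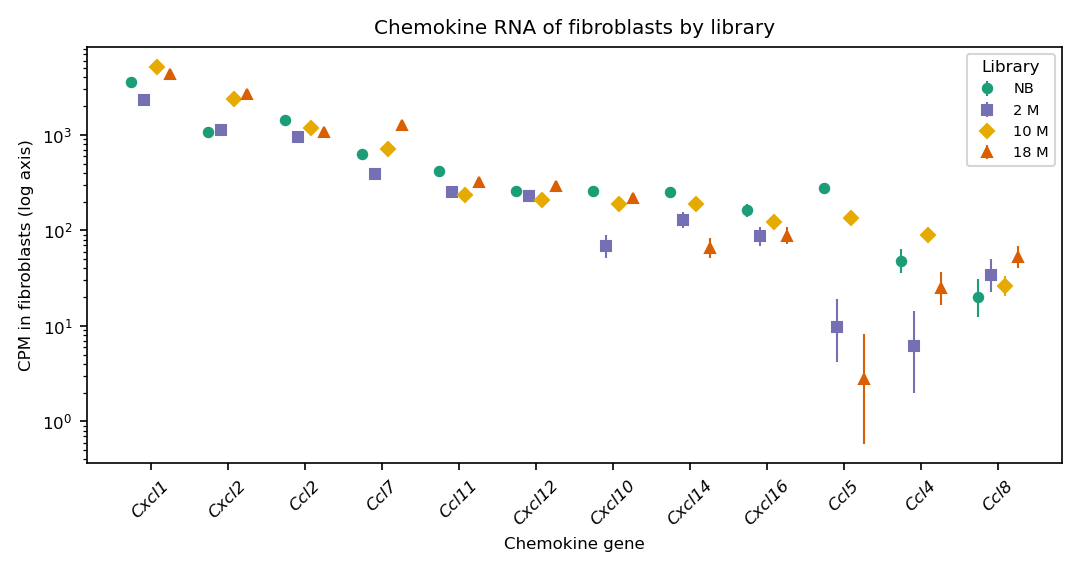
The 12 chemokines with the highest mean level in fibroblasts, as CPM on a log axis, with 1 point per library and its 95% Poisson interval for counting error. Cxcl2, Ccl7 and Cxcl10 sit higher in 18 M than in 2 M, whereas Ccl2 and Cxcl12 lie close together in both.

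In the other large cell types the direction varied. In neutrophils 4 of 10 chemokines were at most 0.5-fold in 18 M (3.89% of 4781 genes): Cxcl2 with a ratio of 0.483, Cxcl1 with 0.198, Cxcl3 with 0.190 and Cxcl16 with 0.0898. Ccl5 was the 1 that was higher there (2.84, beside 8.12% of genes). In NK cells Ccl5 (0.332), Ccl4 (0.386) and Ccl9 (0.182) were lower, 3 of 11 beside 5.62% of 7975 genes, and Cxcl10 (2.68) was higher, beside 3.66%. In alveolar macrophages 4 of 18 were higher (3.95% of 9294 genes), among them Ccl4 with a ratio of 2.38, and Cx3cl1 was lower with 0.424 (2.86%).

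Ccl17 in these macrophages had 0 UMIs in 2 M and 439 in 27 of 396 cells in 18 M, at least 52.5-fold higher when 2 M is set to the floor of 3 UMIs. In T cells 6 of 16 were higher (8.93% of 10882 genes) and none lower (1.87%), all of them at low levels: Ccl4 (2.10), Cxcl1 (2.45), Cxcl16 (2.69), Cxcl10 (4.02), Cxcl15 (4.22) and Ccl7, with 20 UMIs against 0. The B cells moved the same way, at ratios of 2.01 for Cxcl1 and 4.12 for Cxcl15. Of the 16 chemokines with enough UMIs in their own source, Ccl1 was higher in 18 M than in 2 M (3.499, 1.69 to 8.74) and Cxcl2 and Ccl5 were lower, Cxcl1 was higher in 10 M, and none passed 2-fold in NB. No share of all genes was computed for these counts, whose sources are different cell types, so they do not set chemokines apart. With 1 library per age, age cannot be told apart from the library.

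**Figure D5:**
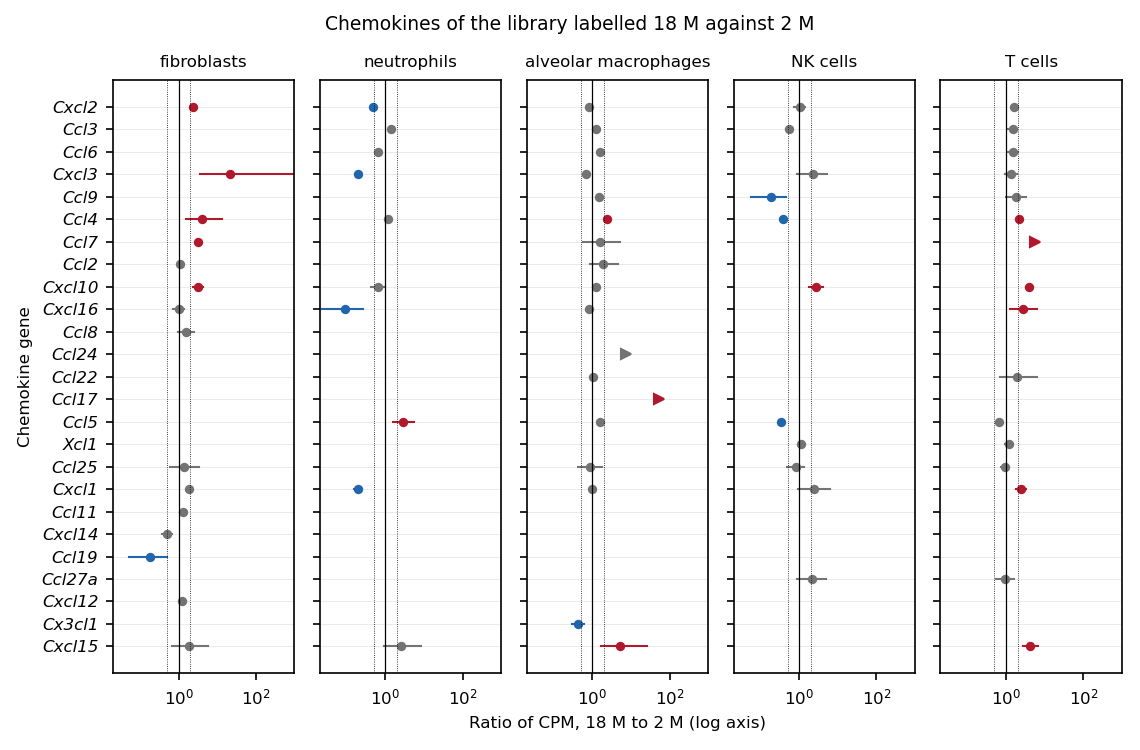
Ratio of the level in 18 M to that in 2 M (log axis) for chemokines with at least 20 UMIs in the cell type, with 95% intervals for counting error, 1 panel per cell type. The neutrophil ratios of Cxcl1, Cxcl2, Cxcl3 and Cxcl16 lie below 0.5, whereas those of Cxcl2, Ccl7 and Cxcl10 in fibroblasts lie above 2.

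The receptors were compared in the same way. Of 23 chemokine receptors 17 could be tested, and 10 were called higher in their highest type than in the next, beside 31.1% of all genes. Cxcr2, the receptor of Cxcl1, Cxcl2 and Cxcl3, was at 322 to 465 CPM in neutrophils (10.39 ± 0.62 above ILC2, adjusted p = 3.8e-18), the type in which Cxcl2 itself was highest. Ccr1, a receptor of Ccl3, also led in neutrophils (512 to 874 CPM, 2.03 ± 0.34, adjusted p = 3.3e-06). Xcr1, the receptor of Xcl1, led in conventional dendritic cells (24.0 to 254 CPM, adjusted p = 0.0014), Cxcr5, the receptor of Cxcl13, in B cells (113 to 155 CPM, adjusted p = 6.3e-09), and Cxcr6, the receptor of Cxcl16, in ILC2 (160 to 633 CPM, adjusted p = 1.7e-05). Ccr8, the receptor of Ccl1, led in ILC2 as well (14.99 to 20.1 CPM, adjusted p = 5.3e-05), the same cells that led the ligand. In NB, 2 M and 10 M, with 16, 13 and 19 ILC2, these Ccr8 levels rest on very few UMIs. For Ccr2, highest in ILC2 with NK cells next (adjusted p = 0.32), and Cxcr4, highest in B cells (adjusted p = 0.90), the highest type did not separate from the next.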

How the data were processed

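Per the labels, 10x 3′ libraries (version 2 kit) were sequenced and, by the submitters' processing notes, handled with Cell Ranger 3.0.2 and Seurat 2.0 on mm10; the deposited matrix headers name software version 3.1.0. The authors deposited raw UMI counts per gene and barcode. Cells were kept if the number of detected genes lay between 200 and 5000, the UMIs did not exceed 25000 and mitochondrial reads stayed below 8%, as in the study. A cell took the type of which it held the most markers (at least 3 of 10, 230 markers in 23 lists, 226 of them in the table; 7 of 10 T cell and 9 of 10 B cell markers), unless a list of another lineage reached more than 50% of that number; such mixed cells were left out and no doublet caller was run. Of the assigned cells 8.68% had exactly 3 markers, and 96.4% of those in named clusters had the same name there (27 Leiden clusters without chemokines, 4 unnamed; monocytes and dendritic cells fell into the interstitial macrophage cluster). Counts were summed per library and type (52 sums of 14 types in the test) and fitted with edgeR 4.0.16 (quasi-likelihood, TMM, filterByExpr, library as a block) in R 4.3.3. Benjamini-Hochberg adjustment ran over all genes and types for a type against the mean of the others. For a type against another it ran over all genes and pairs of types together. The threshold was 0.05. The libraries, 1 per age, served as replicates between types; nothing says how many animals each held. CPM have exact Poisson, shares Clopper-Pearson and ratios conditional binomial intervals at 95%. A ratio counted as past 2-fold at 2 or more or 0.5 or less with an interval excluding 1 and at least 20 UMIs; for the chemokines' own sources at least 10 cells with a UMI were also asked. On simulated data for type contrasts, 28% of 2-fold and 96% of 4-fold changes were recovered, and 0% and 23% of them against endothelial cells alone, so a pair of types that did not pass may still differ.

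Every chemokine of at least 30 UMIs is named with its source; rarer ones are named with their count only. The members, lists and tests were chosen with earlier results of these data known. Alternatives were DESeq2 1.42.0, limma 3.58.1, other scalings, filters and gates, clusters (scanpy 1.11.5), cell limits, 18 M cells with a Y-linked UMI and no Xist UMI, and leaving out each library. Gene positions are from GENCODE (GRCm38). The result of 1 of the 23 receptors is not reported here.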

Additional observations from a re-analysis of the deposited data

Results flagged for a closer look

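Several chemokines went in opposite directions in different cell types between the 18 M and 2 M libraries, past 2-fold in each and with intervals excluding 1. Cxcl2 had a ratio of 0.483 in neutrophils and 2.38 in fibroblasts, and Cxcl3 one of 0.190 in neutrophils and 21.9 in fibroblasts. The fibroblast ratio of Cxcl3 rests on 1 UMI in 2 M. Cxcl1 (0.198) and Cxcl16 (0.0898) were lower in neutrophils, while in T cells they had ratios of 2.45 and 2.69. Ccl5 was lower in NK cells (0.332) and higher in neutrophils (2.84). Ccl4 was lower in NK cells (0.386) and higher in alveolar type II cells (9.88), and Ccl9 was lower in NK cells (0.182) and higher in B cells (4.63). Cxcl10 was lower in alveolar type II cells (0.484) and higher in T cells (4.02). The differences between types were not tested, because each side rests on 1 library per age. The B cells, whose chemokine UMIs serve as a measure of free RNA, held more Cxcl2 (2.24), Ccl4 (3.11) and Cxcl1 (2.01) in 18 M as well. By mean CPM over the libraries, Ccl4 was lower in alveolar type II cells than in B cells. Cxcl1 and Cxcl16 were lower in T cells than in B cells, and the rise of Ccl9 is that of the B cells themselves. Above the B cells by mean CPM were Cxcl2 and Cxcl3 in fibroblasts, Ccl5 in neutrophils and Cxcl10 in T cells. The part of free RNA in all these values was not tested.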

How the results depend on the processing

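No paired analysis was possible because each age has 1 library, and library was a block in every fit. The source of a chemokine was kept for 28 to 32 of 32 chemokines when a library was left out and for 22 (clusters) to 32 under the other settings. In clusters Ccl3, Ccl4, Ccl6 and Ccl9 went to basophils and mast cells and Ccl2, Ccl7 and Ccl8 to fibroblasts, and without 10 M or 18 M the source of Cxcl1 was interstitial macrophages. Against the mean of the other types 30 chemokines were called, and 25 to 32 under the other settings; DESeq2 lost 5 of 28 sources (Ccl1, Ccl24, Ccl19, Cxcl9 and Ccl12). Above the next type, 19 chemokines were called, 13 to 18 when a library was left out, 17 to 22 under the other scalings, filters, gates and cell limits, 9 with DESeq2, 9 in clusters (19 pairs testable) and 9 with 18 M cells with a Y-linked and no Xist UMI (16 pairs testable). Past 2-fold in their own source were 0 chemokines in NB (3 in clusters, 1 with totals without abundant genes, 1 as mean over cells), 1 in 10 M (4 in clusters, 2 without upper limits, 0 as mean over cells) and 3 in 18 M (9 in clusters, 5 without upper limits, 6 in cells with a Y-linked and no Xist UMI). No share of all genes was computed for the counts in a chemokine's own source. For the calls above the next type it was computed in the main setting only. The causes were not tested. Interstitial macrophages and mature dendritic cells were few, which limits their values.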
